A study of Mus musculus with 16 samples.

Results

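The genes described are 45 targets and regulators of the integrated stress response and the unfolded protein response: 28 genes of the ATF4 or amino acid response arm and 17 genes of the endoplasmic reticulum (ER) arm. They were taken by symbol from the 21965 genes of the table, and all 45 passed the requirement of at least 10 counts in at least 4 of 16 libraries. RNA was sequenced from RAW264.7, a mouse macrophage line established from a virus-induced leukaemia, which the labels call mononuclear macrophage leukemia cells. There were 4 groups of 4 libraries: control cells given vehicle (plain culture medium), cells given oxidised low-density lipoprotein (oxLDL) at 50 μg/ml, cells given tirzepatide at 100 nmol/ml as the labels write it (a unit that may be a slip for nmol/l, a far lower dose), and cells given both at once, called the combination here. OxLDL is the modified lipoprotein that loads macrophages with lipid in atherosclerotic plaques, and tirzepatide is a peptide agonist of the GIP and GLP-1 receptors. All groups were 1 cell line grown in high-glucose medium with serum and antibiotics, and no genotype differed between them. How long the cells were treated is not given in the labels. Nor do they state if replicate libraries were grown separately, so a p-value here reflects no more than the spread among these libraries, which may be technical.

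ATF4 is a transcription factor whose translation rises when the initiation factor eIF2α is phosphorylated, by PERK (Eif2ak3) in a stressed ER, by GCN2 when amino acids are short, or by other kinases. It turns on genes for amino acid transport and synthesis, tRNA charging and feedback control. The ER arm is governed by the sensors ATF6 and IRE1 (Ern1) and by XBP1, the factor that IRE1 activates by splicing, and it supplies chaperones, disulphide isomerases and components that remove misfolded proteins. In macrophages both programmes are known from lipid loading, where DDIT3 (CHOP), the product of an ATF4 target, takes part in cell death.

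The letters that these factors are known to read were searched for in RefSeq promoters (build GRCm38.p6, 250 bases before to 50 after the start, both strands), which were found for 39 of the 45 genes. The core of the amino acid response element, TGATGCAA, stood in 3 of 27 promoters of 24 ATF4 arm genes (11.1%), in 1 of 15 ER arm promoters (6.67%) and in 0.895% of all 32851 promoters. A looser form that contains it, TGATGNAAN, stood in 5 of 27 (18.5%), 1 of 15 (6.67%) and 3.95%. The ER stress response element, CCAAT and CCACG with any 9 bases between them, stood in 7 of 15 ER arm promoters (46.7%), in 0 of 27 ATF4 arm promoters and in 0.119% of all promoters. The XBP1-type element TGACGTGG stood in no promoter of either arm and in 0.676% of all. A match is a description of these letters and not a bound site. Most ATF4 arm promoters held none of these motifs, nor did several ER arm promoters, those of Xbp1, Ern1 and Eif2ak3 among them. The difference between the arms was not tested. The matches are shown to give the letters behind these counts and because Herpud1, whose product helps remove proteins from the ER, carries the ATF4-type element among the ER arm genes. Each is written 5′ to 3′ on the strand that holds the motif, with the motif in capitals and 5 bases on either side.
Chac1: aggagTGATGCAACggcag
Pycr1: gtgtaTGATGCAATgcaca
Nupr1: ctgtcTGATGCAATctggc
Asns: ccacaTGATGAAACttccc
Trib3: ccggcTGATGTAAAcctga
Herpud1: cgggcTGATGCAACccgcc
Hspa5: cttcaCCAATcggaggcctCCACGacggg
Hsp90b1: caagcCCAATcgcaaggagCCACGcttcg
Hsp90b1: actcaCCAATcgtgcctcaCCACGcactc
Dnajc3: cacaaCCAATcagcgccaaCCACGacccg
Pdia6: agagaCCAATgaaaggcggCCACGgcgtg
Creld2: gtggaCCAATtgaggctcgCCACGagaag
Calr: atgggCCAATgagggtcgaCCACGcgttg
Canx: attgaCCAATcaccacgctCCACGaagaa

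The 200 bases before the start site are given for 3 of the genes with a match, all on the plus strand of GRCm38.p6: Chac1 at chr2:119351042-119351241, Herpud1 at chr8:94386229-94386428 and Hspa5 at chr2:34771890-34772089. Capitals mark the same matches. Other spellings or spacings of these elements were not searched for and stay in lower case. One such run is attgggccacg in Herpud1, which holds ccacg close to attgg, the reverse complement of ccaat. In Chac1 and Herpud1 the element lies on the other strand, so that its reverse complement is read here.
Chac1: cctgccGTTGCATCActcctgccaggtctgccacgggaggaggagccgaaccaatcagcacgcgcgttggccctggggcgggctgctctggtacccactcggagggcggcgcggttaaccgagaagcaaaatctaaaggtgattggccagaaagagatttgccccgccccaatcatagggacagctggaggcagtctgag
Herpud1: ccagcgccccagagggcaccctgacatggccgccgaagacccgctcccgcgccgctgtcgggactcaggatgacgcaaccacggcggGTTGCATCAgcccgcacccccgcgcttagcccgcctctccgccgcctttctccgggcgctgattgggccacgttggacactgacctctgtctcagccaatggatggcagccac
Hspa5: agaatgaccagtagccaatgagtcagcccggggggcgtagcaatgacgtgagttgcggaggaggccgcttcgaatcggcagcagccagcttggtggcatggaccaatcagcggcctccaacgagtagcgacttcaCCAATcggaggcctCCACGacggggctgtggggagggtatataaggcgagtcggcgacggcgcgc

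Read totals lay between 15877278 and 17336019 counts per library. All 10 macrophage markers were above 0 in every library, with a summed level of 17120 to 23720 TPM (a level scaled by gene length and library depth). Control libraries 1 and 2 also held transcripts of pancreatic acinar cells, 336.7 and 182.6 TPM over 27 marker genes, against 7.427 to 70.18 TPM in the other libraries. Between 2 and 14 of the 27 genes were at 0 in a library. The mitochondrial share of counts was 11.2% and 9.53% in those control libraries, 10.5% in combination library 1 and 7.69% to 9.37% in the rest. Called genes of both arms, and some uncalled ones, were also followed with both of these controls, or combination library 1, left out. Where this ended a call or moved a value by over 1.5 times, the value without them is given beside it. Genes of the further lists and some uncalled genes were not followed in this way.

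Genes of both arms were mostly among the more abundant transcripts of these cells. Over the 16 libraries the ATF4 arm genes had a median level of 149.6 TPM, from 18.86 TPM for Pycr1 to 1601 TPM for Nupr1. The ER arm genes had a median of 83.73 TPM, from 8.355 TPM for Eif2ak3 to 564.7 TPM for Hspa5, and the median over all 11319 tested genes was 23.53 TPM. Nupr1 encodes a small stress-induced chromatin protein, and Hspa5 encodes BiP, the main ER chaperone.

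Taken as a mean over its 28 genes, the ATF4 arm was highest in the tirzepatide group. On the log2 scale of depth-scaled counts (CPM), as a difference from the control mean, it stood at 0.09, 0.09, 0.09 and 0.12 in tirzepatide libraries 1 to 4 (mean 0.10 ± 0.01, SD, n = 4). All 4 values lay above the other 12 libraries, of which the highest was 0.02. The oxLDL group stood at -0.02 ± 0.02 (SD, n = 4) and the combination at -0.03 ± 0.07 (SD, n = 4). In the combination, library 1 stood apart at -0.13 and the other libraries lay between -0.01 and 0.02, which gave a mean of 0.00 without library 1. That library also had the highest mitochondrial share of its group, whose part in the difference was not tested. These means are descriptions and carry no test.

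The ER arm gave another pattern. Its mean over 17 genes was 0.00 ± 0.02 (SD, n = 4) with tirzepatide, -0.06 ± 0.03 (SD, n = 4) with oxLDL and -0.04 ± 0.01 (SD, n = 4) in the combination. The 4 oxLDL libraries (-0.11 to -0.04) and the 4 combination libraries (-0.05 to -0.03) lay below all 4 controls (-0.01 to 0.02), while the tirzepatide libraries overlapped them. The ATF4 arm minus the ER arm was 0.10 ± 0.04 (SD, n = 4) with tirzepatide, 0.05 ± 0.02 (SD, n = 4) with oxLDL and 0.01 ± 0.07 (SD, n = 4) in the combination, or 0.04 in the combination without library 1. In summed TPM, which a few abundant genes such as Hspa5 dominate, the ER arm reached 2712 to 2754 TPM with tirzepatide, 2510 to 2694 TPM in controls, 2451 to 2504 TPM with oxLDL and 2493 to 2642 TPM in the combination, which overlapped the controls on this scale. In bulk RNA, fewer cells with a transcript and less of it per cell cannot be told apart.

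**Figure D1:**
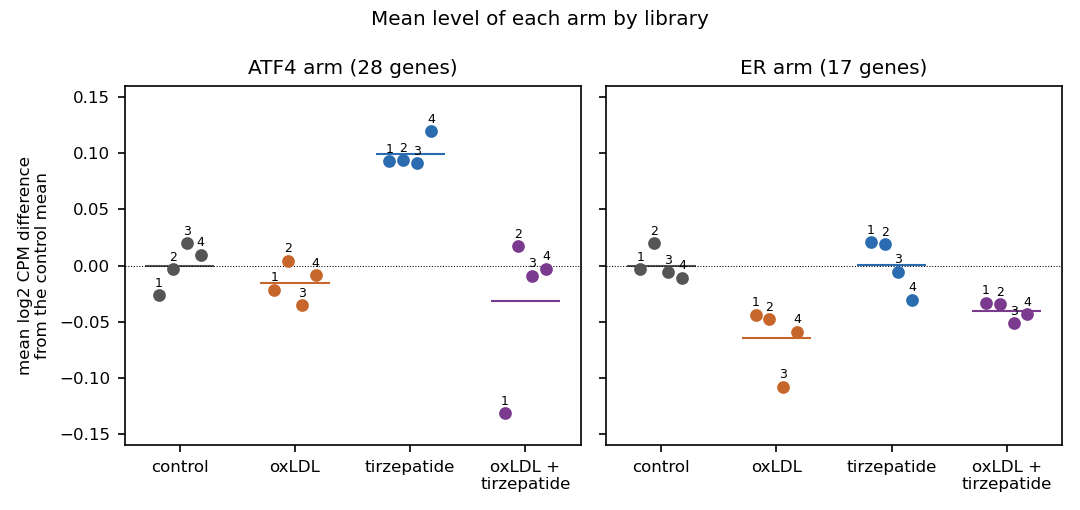
Mean level of each arm in each of the 16 libraries, as the mean over its genes of the log2 CPM difference from the control mean (vertical axis); points are libraries with their number, and lines are group means. The 4 tirzepatide libraries sit between 0.09 and 0.12 for the ATF4 arm, above all others, and combination library 1 sits at -0.13.

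Tirzepatide alone was compared with control to ask what the drug did without lipoprotein. The ATF4 arm genes that rose were Chac1, Slc7a1, Atf5 and Xpot, 4 of 28, and none fell. Over all genes tested 2.34% were called higher and 1.74% lower (edgeR quasi-likelihood test, Benjamini-Hochberg adjusted p under 0.05, in each direction). Of the 28 genes, 27 had a positive log2 change, with a median of 0.08 (range -0.01 to 0.33), and 11 (39.3%) had an unadjusted p under 0.05, all higher. Over all tested genes 49.92% were positive and 18.6% had such a p. With controls 1 and 2 left out 23 of 28 were positive, and under DESeq2 size factors and quantile normalization 26 and 24. The edgeR test called 0 of 17 ER arm genes, with 6 at an unadjusted p under 0.05 (4 higher and 2 lower), a median log2 change of 0.00 and a smallest adjusted p of 0.0676. DESeq2 called 2 of them, Atf6 and Xbp1, and limma after quantile normalization called 0. Over all 11319 genes DESeq2 called 661, limma 342 and edgeR 462.

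Chac1 encodes an enzyme that degrades glutathione and is induced by ATF4 with ATF3 and DDIT3. Its level was 68.5, 74.6, 73.5 and 78.0 TPM in control libraries 1 to 4, and 84.5, 93.9, 92.6 and 106 TPM in tirzepatide libraries 1 to 4. The groups did not overlap, and every tirzepatide library stood above every control. The log2 change was 0.33 ± 0.07 (SE, 95% interval 0.19 to 0.46, edgeR adjusted p = 0.00687), and it was called in all 26 alternatives tried, also without controls 1 and 2 (adjusted p 0.000376 to 0.0445 over the 26).

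Slc7a1 encodes CAT1, a transporter of arginine and lysine. Its level was 119, 116, 132 and 144 TPM in controls and 151, 149, 147 and 155 TPM with tirzepatide. The controls with pancreatic transcripts were the lowest of the 8 libraries, and the lowest tirzepatide library lay just above the highest control. The log2 change was 0.21 ± 0.05 (SE, edgeR adjusted p = 0.0102). Without controls 1 and 2 it was 0.13 (adjusted p = 0.176) and was not called, nor was it without control 2 alone (adjusted p = 0.0725). Over the 26 alternatives its adjusted p ranged from 0.000656 to 0.176.

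Atf5 encodes a transcription factor related to ATF4 that, like it, is regulated by translation. Its level was 126, 133, 151 and 158 TPM in controls and 171, 169, 159.7 and 173 TPM with tirzepatide. Control libraries 1 and 2 were again the lowest, and the groups did not overlap. Its log2 change was 0.23 ± 0.06 (SE, edgeR adjusted p = 0.0251). It was called in 19 of 26 alternatives. It was not called without controls 1 and 2 (0.14, adjusted p = 0.28), without the libraries numbered 1 (adjusted p = 0.0831) or without 1 of 5 single libraries: control 1, control 2 or tirzepatide 1, 2 or 4 (adjusted p 0.0585 to 0.115). The lowest adjusted p of the 26 was 0.00593.

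Xpot encodes exportin-t, which carries tRNA out of the nucleus. Its level was 124, 133, 147 and 150.04 TPM in controls and 159, 153, 155 and 154 TPM with tirzepatide. The tirzepatide libraries were closely grouped and lay just above the highest control. This gave a log2 change of 0.13 ± 0.04 (SE, edgeR adjusted p = 0.0333). It was not called in 14 of 26 alternatives, and its adjusted p ranged from 0.00176 to 0.33, the highest without controls 1 and 2 (log2 change 0.08). Of the 4 genes, Chac1 alone was called in every alternative.

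**Figure D2:**
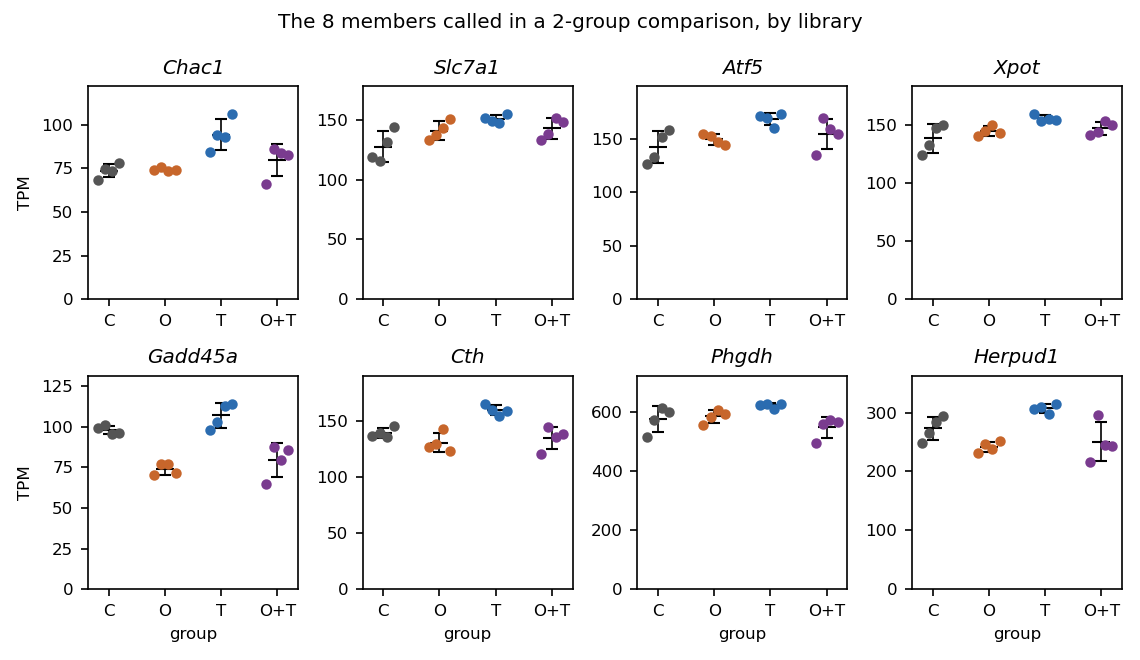
TPM of the 8 genes called in a comparison of groups, by library, for control (C), oxLDL (O), tirzepatide (T) and the combination (O+T); points are libraries, and bars are the mean and SD of 4 libraries. Chac1 stood at 84.5 to 106 TPM with tirzepatide and at 65.9 to 86.0 TPM in the combination, and Gadd45a was lower in both groups given oxLDL.

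The central genes of the arm did not pass with tirzepatide. Atf4 stood at 673, 661, 676 and 682 TPM in controls and at 709, 739, 738 and 746 TPM with tirzepatide. The groups did not overlap in TPM, but on the log2 CPM scale control library 1 lay above tirzepatide library 1 (0.07 against 0.05 from the control mean). The log2 change of 0.09 ± 0.04 (SE, edgeR adjusted p = 0.182) was not called, nor was it in any of the 26 alternatives. Since ATF4 is controlled mainly at translation, its protein is not measured by these levels. Ddit3, which encodes CHOP, stood at 168, 166, 141 and 154 TPM in controls and 169, 158, 167 and 167 TPM with tirzepatide, and these overlapped (log2 change 0.04 ± 0.06, SE, edgeR adjusted p = 0.74; 0.16 without controls 1 and 2). Asns, asparagine synthetase, stood at 409, 431, 432 and 444 TPM in controls and 469, 454, 449 and 447 TPM with tirzepatide. All 4 of these were above the controls in TPM but not on the log2 CPM scale, and the log2 change was 0.06 ± 0.04 (SE, edgeR adjusted p = 0.501). Trib3, a pseudokinase that restrains ATF4, stood at 138, 163, 175 and 167 TPM in controls and 164, 168, 163 and 179 TPM with tirzepatide, which overlapped (log2 change 0.04 ± 0.06, SE, edgeR adjusted p = 0.762; -0.02 without controls 1 and 2).

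Among the other uncalled ATF4 arm genes, Cth, cystathionine gamma-lyase of cysteine synthesis, was closest to the threshold. It had a log2 change of 0.17 ± 0.05 (SE, edgeR adjusted p = 0.0502) and was called in 7 of 26 alternatives, leaving out combination library 1 among them. The neutral amino acid transporters Slc7a5 and Slc1a5 had log2 changes of 0.16 and 0.11 (edgeR adjusted p = 0.142 and 0.225). Neither was followed without controls 1 and 2, which were the lowest controls for both on the log2 CPM scale. From the control mean, controls 1 to 4 stood at -0.18, -0.07, 0.12 and 0.13 for Slc7a5. For Slc1a5 they stood at -0.05, -0.07, 0.05 and 0.07. Stc2, a secreted glycoprotein, and Nupr1 had 0.15 and 0.12 (edgeR adjusted p = 0.0756 and 0.14), and without controls 1 and 2 Nupr1 had 0.19 and passed (adjusted p = 0.0499, range 0.014 to 0.356 over the alternatives). The serine and one-carbon enzymes did not pass, and Phgdh, the first enzyme of serine synthesis, had 0.09 (edgeR adjusted p = 0.259). Phgdh was not followed without controls 1 and 2 either. Its control 1 was the lowest control, at -0.09 from the control mean against 0.01 to 0.07 in the others.

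In the ER arm with tirzepatide, Xbp1 stood at 184, 194, 202 and 204 TPM in controls and 210.2, 222, 207 and 223 TPM with the drug. The tirzepatide libraries were all higher, with a log2 change of 0.13 ± 0.04 (SE, edgeR adjusted p = 0.0676). Atf6 stood at 79.8, 79.1, 82.2 and 93.4 TPM in controls and 93.5, 92.1, 94.6 and 91.4 TPM with tirzepatide, where control 4 fell among the treated libraries. Its log2 change was 0.13 ± 0.04 (SE, edgeR adjusted p = 0.0796). Hspa5 stood at 572, 548, 548 and 571 TPM in controls and 613, 595, 629 and 614 TPM with tirzepatide. These did not overlap in TPM but did on the log2 CPM scale, where control library 1 (0.09) lay above tirzepatide library 1 (0.08), and the log2 change of 0.10 ± 0.04 (SE, edgeR adjusted p = 0.132) did not pass. Hsp90b1, which encodes the chaperone GRP94, stood at 257, 257, 244 and 269 TPM in controls and 278, 266, 265.2 and 245 TPM with tirzepatide, and these overlapped.

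Among the ER stress sensors, Ern1, which encodes IRE1, stood at 42.2, 45.7, 46.9 and 55.5 TPM in controls and 44.8, 47.1, 55.4 and 53.3 TPM with tirzepatide, which overlapped. Eif2ak3, which encodes PERK, stood at 8.16, 8.43, 9.14 and 9.9 TPM in controls and 7.67, 8.16, 7.77 and 8.43 TPM with tirzepatide, and its log2 change of -0.20 ± 0.07 (SE, edgeR adjusted p = 0.128) did not pass. Splicing of Xbp1 cannot be read from a level per gene.

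**Figure D3:**
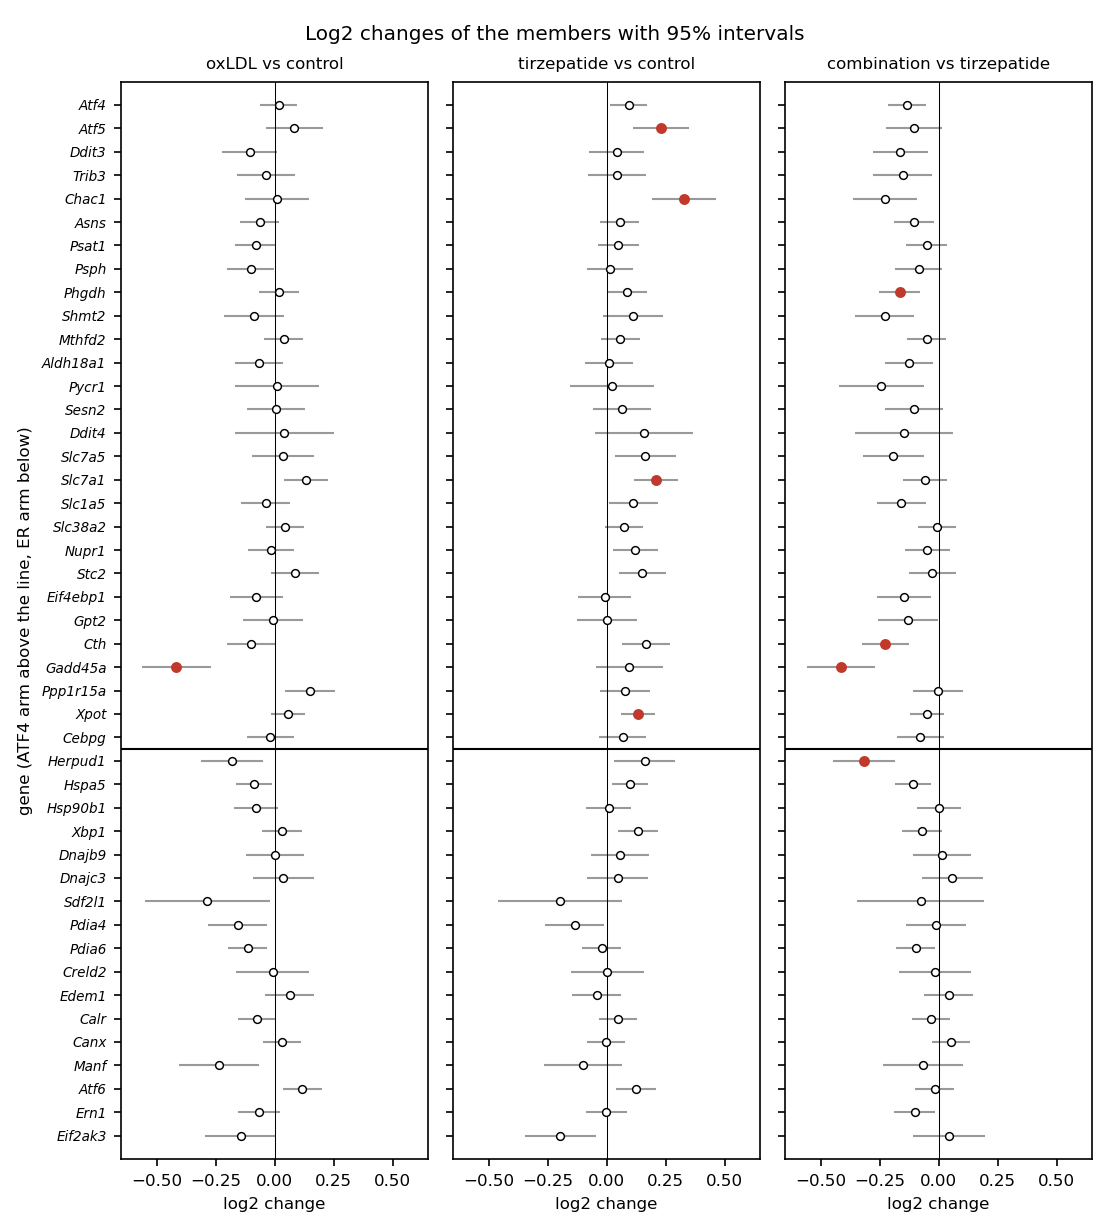
Log2 change of each of the 45 genes in 3 comparisons (horizontal axis) with its 95% interval from the edgeR fit; filled points passed an adjusted p of 0.05, and the horizontal line parts the ATF4 arm (above) from the ER arm (below). With tirzepatide against control 27 of 28 ATF4 arm points lie right of 0, and for the combination against tirzepatide all 28 lie left of 0.

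OxLDL alone was compared with control to ask what the lipoprotein did on its own. It lowered Gadd45a, and no other gene of either arm passed. The ATF4 arm had 0 of 28 genes higher and 1 lower, where 2.49% of all tested genes were called higher and 2.05% lower. Of the 28 genes 14 had a positive log2 change, with a median of 0.00 to 2 decimals, and 4 (14.3%) had an unadjusted p under 0.05 against 18% of all genes.

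Gadd45a encodes a stress protein that binds p38 pathway kinases and cell cycle regulators, and it also responds to p53. It stood at 99.5, 101, 95.7 and 96.5 TPM in controls and 70.0, 77.3, 77.3 and 71.7 TPM with oxLDL. The groups were well apart, and neither control with pancreatic transcripts stood out in TPM. On the log2 CPM scale those controls were the highest, at 0.09 and 0.05 from the control mean, against -0.06 and -0.08 in controls 3 and 4. The log2 change was -0.42 ± 0.07 (SE, 95% interval -0.56 to -0.27, edgeR adjusted p = 0.000561), and it was called in all 26 alternatives, from -0.45 to -0.35. The smallest change was without controls 1 and 2 (edgeR adjusted p = 0.0175).

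The other ATF4 arm genes with the smallest p with oxLDL were Slc7a1, with a log2 change of 0.14 ± 0.05 (SE, edgeR adjusted p = 0.0927; 0.06 without controls 1 and 2), and Ppp1r15a, which encodes the phosphatase subunit GADD34 that reverses eIF2α phosphorylation, with 0.15 ± 0.05 (SE, edgeR adjusted p = 0.0969). Atf4 stood at 680.0, 684, 691 and 683 TPM with oxLDL, and its change from control was 0.02 ± 0.04 on the log2 scale (SE, edgeR adjusted p = 0.868; 0.04 without controls 1 and 2). Ddit3 stood at 144, 140.0, 145 and 149 TPM, with -0.11 ± 0.06 (SE, edgeR adjusted p = 0.339; 0.01 without controls 1 and 2). Neither Atf4 nor the CHOP gene was called with oxLDL in any alternative. Chac1 lay within 73.7 to 75.9 TPM with oxLDL, inside the range of the controls in TPM.

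More ER arm genes had negative than positive log2 changes with oxLDL (6 of 17 positive), without a call. The edgeR test called 0 of 17, with 7 (41.2%) at an unadjusted p under 0.05 (6 lower and 1 higher), against 18% of all genes. DESeq2 called 1 of the 17, Pdia6, and 663 of all 11319 genes, and limma after quantile normalization called 0 of the 17. The median log2 change was -0.07 (range -0.28 to 0.12, smallest adjusted p 0.102), or -0.04 without controls 1 and 2. Of the 43 further ER folding and degradation genes described below, 27 were positive with oxLDL, with a median of 0.03, so the negative median was not shared by that list. The lowest values were -0.28 ± 0.13 for Sdf2l1, a DNAJB-binding ER protein (SE, edgeR adjusted p = 0.24), and -0.24 ± 0.08 for Manf, a secreted ER stress protein (SE, edgeR adjusted p = 0.106; -0.14 without controls 1 and 2). Herpud1 had -0.18 ± 0.06 (SE, edgeR adjusted p = 0.113), Pdia4 had -0.16 ± 0.06 (SE, edgeR adjusted p = 0.156) and Pdia6 had -0.11 ± 0.04 (SE, edgeR adjusted p = 0.115). Pdia4 and Pdia6 are disulphide isomerases.

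For the chaperones themselves, Hspa5 stood at 527, 521, 540.3 and 519 TPM with oxLDL, below all controls, with a log2 change of -0.09 ± 0.04 (SE, edgeR adjusted p = 0.205). Hsp90b1 stood at 244, 238, 252 and 244 TPM, with -0.08 ± 0.05 (SE, edgeR adjusted p = 0.389; -0.04 without controls 1 and 2), and overlapped the controls. The sensors went different ways, with Atf6 at 0.12 ± 0.04 (SE, edgeR adjusted p = 0.102), Ern1 at -0.07 ± 0.04 (SE, edgeR adjusted p = 0.458; -0.10 without controls 1 and 2) and Eif2ak3 at -0.14 ± 0.07 (SE, edgeR adjusted p = 0.308). None of these passed.

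The combination was compared with oxLDL alone to ask what tirzepatide added in cells given oxLDL. No gene of either arm passed, in a comparison where 0.0353% of all genes tested were called higher and 0% lower, so that a count of 0 is near the background. The edgeR test called 0 of 28 ATF4 arm genes and 0 of 17 ER arm genes. In each arm 2 genes had an unadjusted p under 0.05, or 7.14% and 11.8%, near the 10.1% of all genes. They were Pycr1 at -0.23 and Phgdh at -0.10, and Calr at 0.09 and Hspa5 at 0.08. DESeq2 and limma after quantile normalization also called 0 in both arms. The smallest adjusted p was 0.379 in the ATF4 arm and 0.453 in the ER arm. Chac1 stood at 65.9, 86.0, 83.5 and 82.5 TPM in the combination, where library 1 was below and the other libraries above all oxLDL libraries. Its log2 change was 0.09 ± 0.07 (SE, 95% interval -0.05 to 0.23, edgeR adjusted p = 0.663), and it was 0.16 without combination library 1 and 0.04 without library 2, not called in either case. Gadd45a stood at 64.98, 87.4, 79.7 and 85.9 TPM, again with library 1 the lowest, and its log2 change from oxLDL was 0.10 ± 0.07 (SE, edgeR adjusted p = 0.653), or 0.17 without library 1 and 0.05 without library 2, with no call.

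The combination was also compared with tirzepatide alone, which asks what oxLDL did in the presence of the drug and shares the tirzepatide libraries with the comparison against control. Gadd45a, Cth and Phgdh fell, 3 of 28 ATF4 arm genes, and none rose, where 0.76% of all genes were called higher and 0.777% lower. All 28 log2 changes were negative, with a median of -0.13, and 15 (53.6%) had an unadjusted p under 0.05 against 13.8% of all genes. Without combination library 1 the median was -0.08 (1 of 28 positive, Gadd45a called), and without all libraries numbered 1 it was -0.09 (2 positive, Gadd45a called). In the ER arm Herpud1 fell and no gene rose. The median there was -0.02, with 6 of 17 positive, and 4 (23.5%) had an unadjusted p under 0.05, all lower.

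Gadd45a stood at 98.1, 103, 113 and 114 TPM with tirzepatide and at 64.98 to 87.4 TPM in the combination, and these did not overlap. Between them the log2 change was -0.41 ± 0.07 (SE, edgeR adjusted p = 0.00234), called in all 26 alternatives. Cth stood at 165, 159, 154 and 158 TPM with tirzepatide and 120.5, 144, 135 and 138 TPM in the combination, a log2 change of -0.23 ± 0.05 (SE, edgeR adjusted p = 0.0156). The groups were apart, and controls (136, 139, 135 and 145 TPM) and oxLDL libraries (127, 129, 142 and 123 TPM) lay near the combination. The call for Cth was lost in 6 of 26 alternatives, without combination library 1 (adjusted p = 0.0822) and without the libraries numbered 1 (adjusted p = 0.189) among them, and the lowest adjusted p was 0.00172.

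Phgdh stood at 624, 628, 609.9 and 629 TPM with tirzepatide and 495, 559, 573 and 566 TPM in the combination, a log2 change of -0.17 ± 0.04 (SE, edgeR adjusted p = 0.0383). Combination library 1 was the lowest, and the call was lost in 14 of 26 alternatives (adjusted p 0.00536 to 0.198, the highest both without combination library 1, where the log2 change was -0.13, and without all libraries numbered 1). Atf4 stood at 603, 657, 681 and 699 TPM in the combination, all below the tirzepatide libraries, with a log2 change of -0.13 ± 0.04 (SE, edgeR adjusted p = 0.0849). Chac1 had -0.23 ± 0.07 (SE, edgeR adjusted p = 0.0819), and Shmt2, the mitochondrial serine hydroxymethyltransferase, had -0.23 ± 0.06 (SE, edgeR adjusted p = 0.0576). These 3 genes did not pass, although Shmt2 did without controls 1 and 2 (adjusted p = 0.0216, range 0.00621 to 0.285 over the alternatives). Trib3 (126, 145, 165 and 163 TPM in the combination), Ddit3 (132, 150.1, 147 and 146 TPM) and Asns (405, 440.3, 418 and 405 TPM) were not called either.

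Herpud1 of the ER arm holds the ATF4-type element printed above, but the element did not follow the calls. Slc7a1, Atf5, Xpot, Gadd45a and Phgdh were called and had no match. Pycr1, Nupr1, Asns and Trib3 hold it and were not called in the main edgeR fit. Herpud1 stood at 307, 309.9, 297 and 315 TPM with tirzepatide and 216, 296, 246 and 244 TPM in the combination. In TPM combination library 2 lay just below the lowest tirzepatide library and the other libraries far below it. On the log2 CPM scale library 2 (0.10 from the control mean) lay above tirzepatide library 3 (0.09), so the groups overlapped there. The log2 change was -0.32 ± 0.06 (SE, edgeR adjusted p = 0.00803), from -0.41 to -0.26 over the alternatives (adjusted p 4.293e-06 to 0.0532), and the call was lost without combination library 4, which gave the highest of these. The level was 248, 266, 284 and 294 TPM in controls and 232, 247, 239 and 251 TPM with oxLDL. From control the log2 change with tirzepatide was 0.16 ± 0.06 (SE, edgeR adjusted p = 0.149), and from oxLDL to the combination it was 0.02 ± 0.06 (SE, edgeR adjusted p = 0.923; 0.08 without combination library 1). In the order of group means Herpud1 was lowest with oxLDL, then in the combination, in controls and with tirzepatide, and the first 3 groups overlapped. The chaperones did not pass this comparison. Hspa5 (558, 570.0, 546 and 564 TPM) and Hsp90b1 (270.1, 256, 254 and 261 TPM) in the combination were within the range of the controls or next to it. Against tirzepatide, Hspa5 was lower without overlap in TPM, with a log2 change of -0.11 ± 0.04 (SE, edgeR adjusted p = 0.162). Hsp90b1 had 0.00 ± 0.05 (SE, edgeR adjusted p = 0.997).

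**Figure D4:**
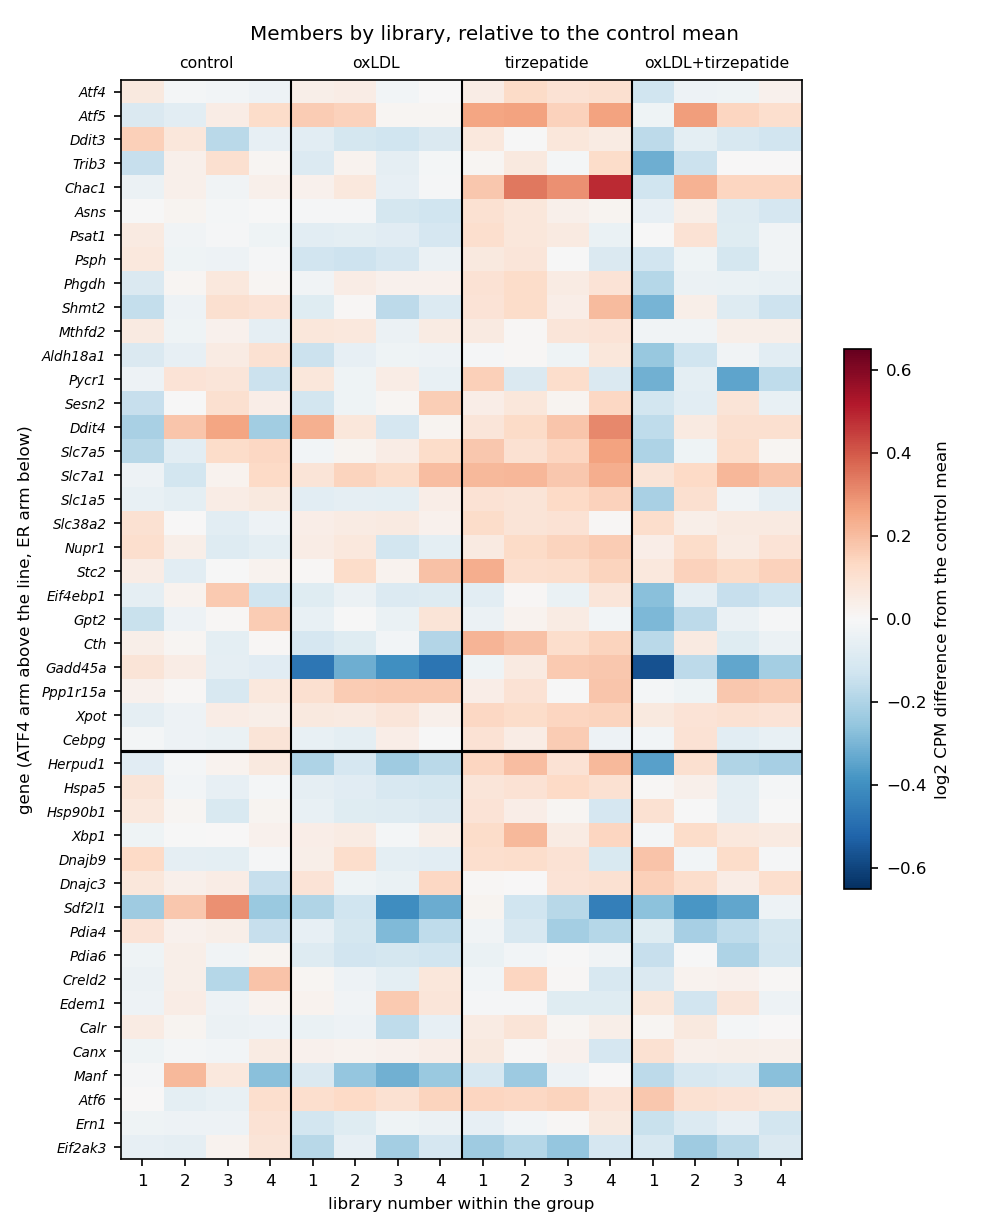
Log2 CPM difference of each of the 45 genes (vertical axis) from the control mean in each of the 16 libraries (horizontal axis, 4 libraries a group); red is higher and blue lower. Gadd45a is low in all 8 libraries given oxLDL, Chac1 is high in the 4 tirzepatide libraries, and combination library 1 is low for many ATF4 arm genes.

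Whether the effect of tirzepatide differed with oxLDL was tested as the interaction. No member was called. Over all genes 0.0265% were called with a more positive effect and 0.0442% with a more negative effect under oxLDL. The edgeR test called 0 of 28 ATF4 arm genes, with 8 (28.6%) at an unadjusted p under 0.05, all negative. It called 0 of 17 ER arm genes, with 1 (5.88%) at such a p. Over all tested genes 10.3% had such a p and 48.86% were positive. DESeq2 and limma after quantile normalization called 0 in both arms. The median interaction was -0.11 in the ATF4 arm (3 of 28 positive, smallest adjusted p 0.256) and 0.02 in the ER arm (smallest adjusted p 0.417). It was -0.24 ± 0.09 for Chac1 (SE, edgeR adjusted p = 0.391), -0.19 ± 0.06 for Slc7a1 (SE, edgeR adjusted p = 0.273) and -0.19 ± 0.06 for Phgdh (SE, edgeR adjusted p = 0.256). Without combination library 1 the ATF4 arm median was -0.08 and Chac1 -0.17, and without controls 1 and 2 the median was -0.10 and Slc7a1 -0.11. A difference in the drug effect between cells with and without oxLDL was not called for any of these genes, which does not show that the effects were alike.

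Averaged over cells with and without oxLDL, tirzepatide raised Chac1 and no other of the 28 ATF4 arm genes, where 1.8% of all genes were called higher and 1.48% lower. The log2 change of Chac1 was 0.21 ± 0.05 (SE, edgeR adjusted p = 0.0158), called in all 25 alternatives. Of the 28 genes 22 (78.57%) were positive, with a median of 0.04, against 49.16% of all genes. DESeq2 called 5 of the 28 (Atf5, Chac1, Nupr1, Slc7a1 and Xpot). Over all 11319 genes it called 626, where edgeR called 372. The edgeR test called 0 of 17 ER arm genes, with 4 (23.5%) at an unadjusted p under 0.05, all higher, against 18.9% of all genes. DESeq2 called 1. That gene was Hspa5, with an edgeR log2 change of 0.09 ± 0.03 (SE, adjusted p = 0.0586), which passed in 7 of 25 alternatives, leaving out controls 1 and 2 among them.

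Other genes of the same pathways, from lists of 29 further integrated stress response genes and 43 further ER folding and degradation genes, were counted alongside. Calls in these lists were not followed with controls 1 and 2, or combination library 1, left out. With tirzepatide 6 of the 29 rose and none fell, where 2.34% of all genes were called higher and 1.74% lower. They were the tRNA synthetase genes Tars1 (log2 change 0.24), Eprs1 (0.18) and Nars1 (0.14), the transporters Slc7a11 (0.34) and Slc38a1 (0.16), and the mitochondrial folate enzyme Mthfd1l (0.23). With oxLDL 3 of the 29 rose and none fell (2.49% and 2.05% of all genes), all of them transporters or their partner: Slc7a11 (0.70), Slc3a2 (0.25) and Slc38a1 (0.25). In the combination against tirzepatide 1 of the 29 rose, Slc7a11 (0.39), and 3 fell, Wars1 (-0.26), Aldh1l2 (-0.22) and Slc6a9 (-0.21), beside 0.76% and 0.777% of all genes. Of the 43 ER genes, Serp1 fell with oxLDL (-0.18), and with tirzepatide Ero1a rose (0.15) and Edem2 fell (-0.26). Each is 1 gene of 43, near the shares of all genes called in those directions (2.05%, 2.34% and 1.74%).

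Slc7a11, the cystine carrier subunit of system xc-, is induced by ATF4 and also by NRF2. It stood at 90.8, 79.0, 80.5 and 89.2 TPM in controls, 143, 138, 143 and 131 TPM with oxLDL and 118, 110.3, 111 and 113 TPM with tirzepatide. In the combination it stood at 153, 116, 151 and 152 TPM, with library 2 well below the others. Every treated library was above every control. All oxLDL libraries stood above all tirzepatide libraries, whereas for Chac1 all oxLDL libraries (73.7 to 75.9 TPM) stood below all tirzepatide libraries (84.5 to 106 TPM).

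The extent to which members varied together within groups depended on 1 library. Over the 378 pairs of ATF4 arm genes the median correlation of their deviations from group means across 16 libraries was 0.15, as a description, against 0.00 for the 136 pairs of ER arm genes and 0.01 between the arms. Without combination library 1 it was 0.01 in the ATF4 arm and 0.02 in the ER arm. These points share libraries and depth. The median SD between replicates on the log2 scale was 0.0764 in the ATF4 arm and 0.0673 in the ER arm, against 0.111 over all tested genes.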

How the data were processed

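The deposited table holds expected counts and TPM per gene and library. The submitters' processing notes name RSEM, StringTie 1.3.1, fastp 0.18.0, Bowtie2 2.2.8 and the build GRCm39 (mm39); the annotation is not given in the sources used here. The authors' expected counts, made before deposit, were rounded to whole numbers and tested; the TPM values as deposited by the authors are used for levels. Genes passed filterByExpr (minimum count 10), 11319 in all. One edgeR 4.0.16 quasi-likelihood fit (R 4.3.3, TMM) held all 16 libraries with a mean per group and gave 6 contrasts, each with Benjamini-Hochberg adjustment over all genes and a threshold of 0.05. Contrasts share libraries. Fold changes are log2 changes of this fit; plotted log2 CPM used a prior count of 2. The fit was checked on simulated counts.

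Members and lists were chosen with earlier results of these data known. All 45 genes were accounted for, with values by library for called genes and 12 central genes; of the further lists, up to 6 called genes were named by smallest adjusted p. Ddit3 has 2 identifiers in the table, and the one with at most 0.95 counts was not used. Replicates differed beyond counting noise (chi-square per degree of freedom 2.713 to 17.75 over 24 pairs), and no files were identical. Alternatives were a replicate block, fits of only the groups compared, DESeq2 1.42.0 and its size factors, quantile normalization with limma 3.58.1, other filters, leaving out libraries and, added after seeing the data, the mitochondrial share as a covariate. Promoters were RefSeq's on GRCm38.p6, which is not the build of the counts, so no coordinates were joined to them.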

Additional observations from a re-analysis of the deposited data

Results flagged for a closer look

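In 4 of 180 groups of 4 libraries (2.22%, where chance gives about 5%) 1 library lay apart from the other 3 in TPM. This was by the gap test for outlying values, with a critical value of 0.829. The test sets the gap against the range of the group, so a small difference is flagged where the other libraries are close together. Trib3 was 148.2 TPM in oxLDL library 1 and 159.5 to 160.8 TPM in the others. Psat1, a serine synthesis enzyme, was 200.4 TPM in oxLDL library 3 and 192.6 to 193.8 TPM in the others. Dnajb9, an ER co-chaperone gene, was 78.16 TPM in tirzepatide library 4 and 88.32 to 89.22 TPM in the others. Ern1 was 39.26 TPM in combination library 1 and 47.32 to 48.28 TPM in the others.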

How the results depend on the processing

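The direction and call of Chac1 with tirzepatide and of Gadd45a in both comparisons held under all alternatives tried, and both arms kept 0 calls in the combination against oxLDL and in the interaction. For the other counts of ATF4 arm calls, the replicate block gave 3 with oxLDL (1 without it) and 6 with tirzepatide (4). It gave 7 for the combination against tirzepatide (3) and 5 for the average effect (1). Over all genes the calls rose as well, to 734, 750, 378 and 682 in the same order, from 514, 462, 174 and 372. DESeq2 gave 6 for the combination against tirzepatide and 5 for the average (308 and 626 over all genes). No filter on low counts gave 6 and 4 (282 and 495 over all 16115 genes). Without controls 1 and 2 the counts were 2 with tirzepatide and 2 for the average, without the libraries numbered 1 they were 2, 1 for the combination against tirzepatide and 3 for the average, with the mitochondrial share as a covariate 7 and 6 for tirzepatide and the average, and with quantile normalization and limma 2 for the average. Leaving out 1 library gave 1 to 2 with oxLDL and 1 to 5 with tirzepatide (1 without control 2). It gave 1 to 6 for the combination against tirzepatide (1 without combination 1, 3 or 4 or tirzepatide 2) and 1 to 4 for the average. Over all genes such fits gave 307 to 594, 119 to 542, 58 to 444 and 154 to 707 calls.

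For the ER arm, with 0 calls under oxLDL, the block, a fit of only the groups compared, no filter, DESeq2 and the covariate each gave 1. Over all genes these gave 734, 516, 588, 663 and 813 calls, against 514. With tirzepatide (0) the block gave 1, DESeq2 2 and the covariate 2 (750, 661 and 856 over all genes, against 462). For the combination against tirzepatide (1) the covariate gave 2 (216 over all genes, against 174). For the average (0) the block, DESeq2, leaving out controls 1 and 2, leaving out the libraries numbered 1 and the covariate each gave 1. Over all genes these gave 682, 626, 501, 353 and 962 calls, against 372. Leaving out 1 library gave 0 to 2, 0 to 1, 0 to 2 (0 without combination 4) and 0 to 1 in these 4 comparisons.

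Directions of uncalled genes that reversed were Herpud1 in the combination against oxLDL (-0.075 without combination 2, up to 0.084 without combination 1), Atf4 with oxLDL (-0.0032 with quantile normalization), Ddit3 with oxLDL (0.0077 without controls 1 and 2) and with tirzepatide (-0.015 without control 3 to 0.093 without control 1, and 0.16 without controls 1 and 2), and Trib3 with tirzepatide (-0.018 without controls 1 and 2, -0.030 with the covariate -0.0083 without control 1 and up to 0.076 without control 3). The cause of these shifts was not tested.

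Calls over all genes moved with the setting, from 462 with tirzepatide to 750 under the block, 856 with the covariate, 204 without controls 1 and 2, 186 without tirzepatide 1 and 119 without control 2. For the combination against tirzepatide (174) they ranged from 58 without combination 4 to 444 without combination 2. The labels do not say that a number marks a shared batch, and not every same-numbered pair correlated above 0.1, so the block was kept as an alternative. The 24 same-numbered pairs had a median correlation of 0.0176 (-0.127 to 0.189), 5 of them over 0.1 and all of these numbered 1 or 4, and 6 of 16 libraries correlated best with their own number. In all 4 groups the mitochondrial share was higher in libraries 1 and 2 than in 3 and 4, and what the numbers share was not tested.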
